A study of Mus musculus with 16 samples.

Results

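The complement components described here are 8 genes, C4a, C4b, C2, C3, C1qa, C1qb, C1qc and Serping1, and every array probe annotated to 1 of them was taken. The annotation names 12 probes for 7 of these genes, out of 19057 genes with a probe, and C3 is not analysed here because no probe is annotated to it. Of the 12 probes 11 passed the detection filter, which left all 7 genes among 12020 genes tested. Hippocampal RNA of male C57BL/6J mice was read on 16 bead arrays from Illumina. The mice were 2 or 12 months old at treatment. They received vehicle, a mixture of ethanol, cremophor and saline, or Δ9-tetrahydrocannabinol (THC), the cannabinoid of cannabis that causes intoxication. The dose was 3 mg/kg/day, and subcutaneous minipumps delivered it over 28 days. All groups then had a drug-free interval with a behavioural test before the tissue was taken. The 4 groups were vehicle at 2 months (control_Young, 3 arrays), THC at 2 months (THC_Young, 3 arrays), vehicle at 12 months (control_Old, 5 arrays) and THC at 12 months (THC_Old, 5 arrays). The labels do not say how arrays correspond to single mice, so p-values measure the spread between these arrays, which may be partly technical.

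Complement is a cascade of blood and tissue proteins that tags cells, debris and, in the developing and diseased brain, synapses for removal. C1q, assembled from the products of C1qa, C1qb and C1qc, recognises the target, and its attached proteases cleave C4 and C2, whose fragments together form the enzyme that cleaves C3. Serping1 encodes the C1 inhibitor, which blocks these proteases. In the brain C1q is made chiefly by microglia, while C4 transcripts are found mainly in astrocytes and some neurons and other glia.

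All values below are log2 intensities after background correction and quantile normalization. A level of 1 probe is not compared with that of another, since probes differ in brightness. Each array detected 41.1% to 45.9% of its probes, and precision is limited by how many arrays there are. The 4 arrays of slide 1 stood apart from the other 12 on the first principal component (−50.2 to −33.7 against −0.87 to 31.3), so results are also given without them or within slides. Of 8 tested defining markers of hippocampal neurons, 7 were detected on all 16 arrays, among them Prox1, C1ql2, Wfs1 and Fibcd1, and Lct was detected on 14. Each tissue sample is a mixture, so fewer cells of a type and less RNA per cell cannot be told apart.

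C4 expression rose with age: over both treatments C4a was 2.15-fold and C4b 1.89-fold higher at 12 than at 2 months. C4b encodes complement C4 and C4a its close paralog, the sex-limited protein. Both lie on chromosome 17 near C2, with 4 annotated genes between C4b and C4a and 8 between C4a and C2. The RefSeq table of GRCm38.p6 lists C4a as a transcribed pseudogene. The genes are near-identical copies, and the probes' sequences were not used here, so signal of 1 copy on a probe of the other cannot be separated.

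The brightest C4a probe read 8.39, 8.09 and 8.51 on the 3 arrays of young vehicle mice and 8.39, 7.80 and 8.10 on those of young THC mice. At 12 months it read 9.66, 8.99, 9.56, 9.20 and 9.55 under vehicle and 9.46, 8.83, 8.88, 9.44 and 9.61 under THC. Every one of the 10 old arrays thus lay above every one of the 6 young arrays, with 8.83 the lowest old value and 8.51 the highest young value. The mean of both age differences, each treatment weighted equally, was 1.10 ± 0.15 (SE), with an adjusted p of 0.00850 in limma over all 22625 probes.

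C4b, by its brightest probe, read 8.09, 7.50 and 8.19 in young vehicle mice and 7.80, 7.63 and 7.57 in young THC mice. In old mice it read 8.87, 8.35, 8.80, 8.52 and 8.77 under vehicle and 8.86, 8.55, 8.39, 9.14 and 8.93 under THC. The ages again did not overlap, from 7.50 to 8.19 at 2 months and from 8.35 to 9.14 at 12 months. The difference over both treatments was 0.92 ± 0.14 (limma adjusted p = 0.0147).

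**Figure D1:**
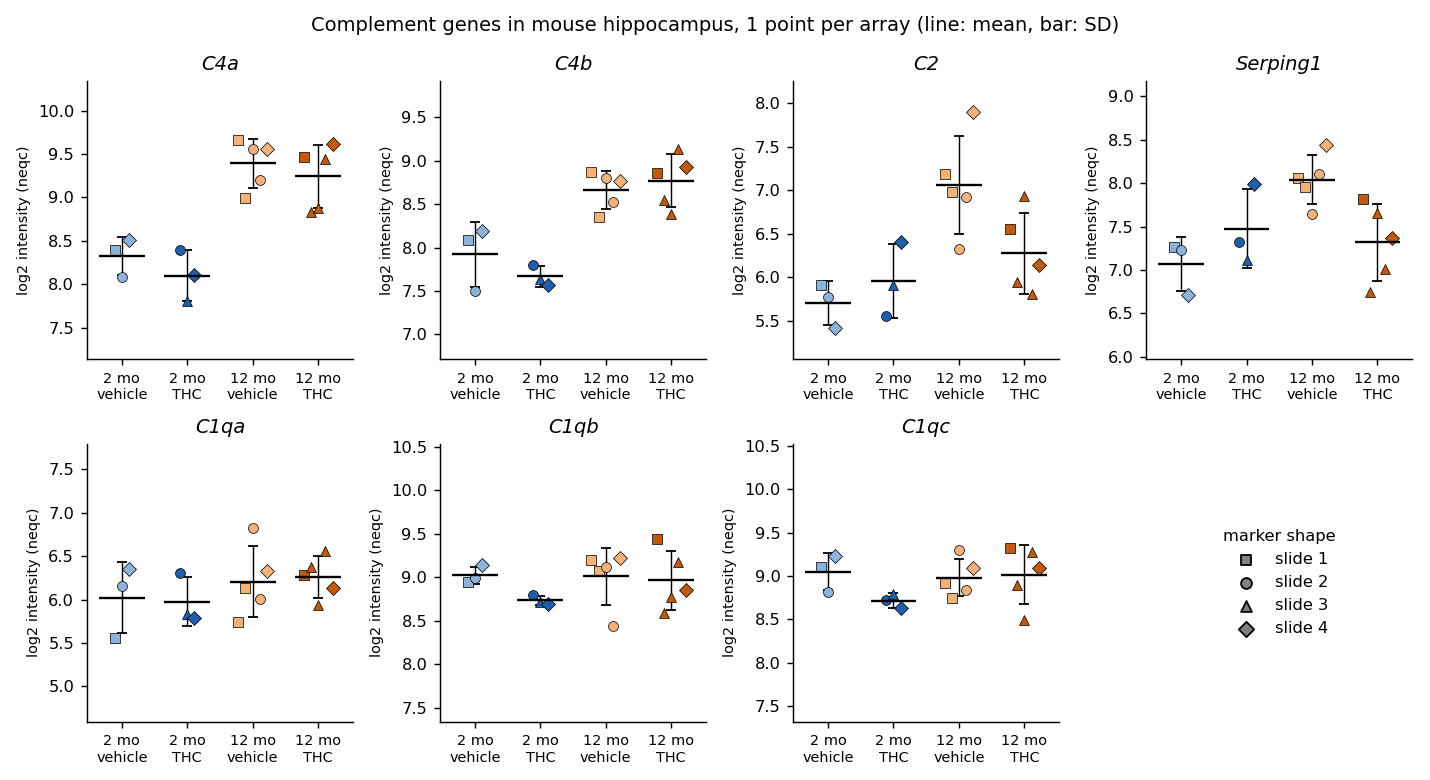
Log2 intensity of the 7 complement genes (y axis, background corrected and quantile normalized, 1 panel per gene on a scale of equal span) in the 4 groups (x axis), with 1 point per array, marker shape for the slide, a line at the group mean and a bar for the SD. All 12-month points of C4a and C4b lie above all 2-month points, while the ages overlap for the 3 C1q genes and the young THC points of C1qb and C1qc lie below those of young vehicle mice.

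C4a and C4b were 2 of the 6 probes (0.0265% of 22625) that passed the adjusted p of 0.05 for age over both treatments. Complete separation of the ages with higher values at 12 months was found for 16 probes (0.0707%), these among them. At an unadjusted p under 0.05, 7 of the 11 tested member probes were higher at 12 months, against 4.57% of all probes. Several of these probes are of the same gene, and by the brightest probe 4 of 7 genes were higher. Members were chosen with earlier results of these data known, so such shares, here and below, are only a description. The adjusted call depended on which young arrays were present, while with 1 array left out the differences ran from 1.03 to 1.18 for C4a and from 0.81 to 0.99 for C4b. Without control_Young replicate 2 the differences were 1.04 and 0.81 (adjusted p = 0.0565 and 0.0650), without THC_Young replicate 2 they were 1.03 and 0.91 (adjusted p = 0.0574 and 0.0787), and without THC_Young replicate 3 C4b was at 0.90 (adjusted p = 0.0762). Without slide 1 they were 1.11 and 0.97 (adjusted p = 0.0799 and 0.109).

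The age difference can be read separately in vehicle and THC mice, which share no arrays. Both differences use 1 estimate of the spread, pooled over the 4 groups. In vehicle mice C4a differed by 1.06 ± 0.21 and C4b by 0.74 ± 0.19, and by unadjusted p they ranked 6 and 34. In THC mice C4a differed by 1.14 ± 0.21 (2.21-fold) and C4b by 1.10 ± 0.19 (2.15-fold), and by unadjusted p they ranked 6 and 3 of 22625 probes. Taken singly neither comparison passed, with limma adjusted p of 0.396 and 0.844 in vehicle mice and 0.158 and 0.148 in THC mice. The limma test of the difference between the age effects gave 0.08 ± 0.30 for C4a and 0.36 ± 0.27 for C4b (THC minus vehicle, adjusted p = 0.998 and 0.988), with 95% confidence intervals from −0.55 to 0.71 and from −0.21 to 0.93.

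For age in vehicle mice 6 of the 11 tested member probes were higher at an unadjusted p under 0.05, where 2.61% of all probes were, and 5 were higher with no overlap, where 1.44% were. For age in THC mice the counts were 3 and 4, against 4.62% and 3.67% of all probes. In limma 0 member probes and 0 of all probes passed the adjusted p in either comparison.

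Each of the 4 slides held young and old arrays. Since no ages overlapped for C4a and C4b over all arrays, they could not overlap within a slide either. Only the sizes of the within-slide differences are therefore of interest. The differences within slides 1 to 4 were 0.98, 1.14, 1.25 and 1.28 for C4a and 0.60, 1.01, 1.06 and 0.97 for C4b. These within-slide means mix the treatments, since slide 1 had only a vehicle array and slide 3 only a THC array at 2 months. In vehicle mice alone the differences on slides 1, 2 and 4 were 0.93, 1.29 and 1.05 for C4a and 0.52, 1.17 and 0.58 for C4b. In THC mice alone those on slides 3 and 4 were 1.25 and 1.51 for C4a and 1.06 and 1.35 for C4b.

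**Figure D2:**
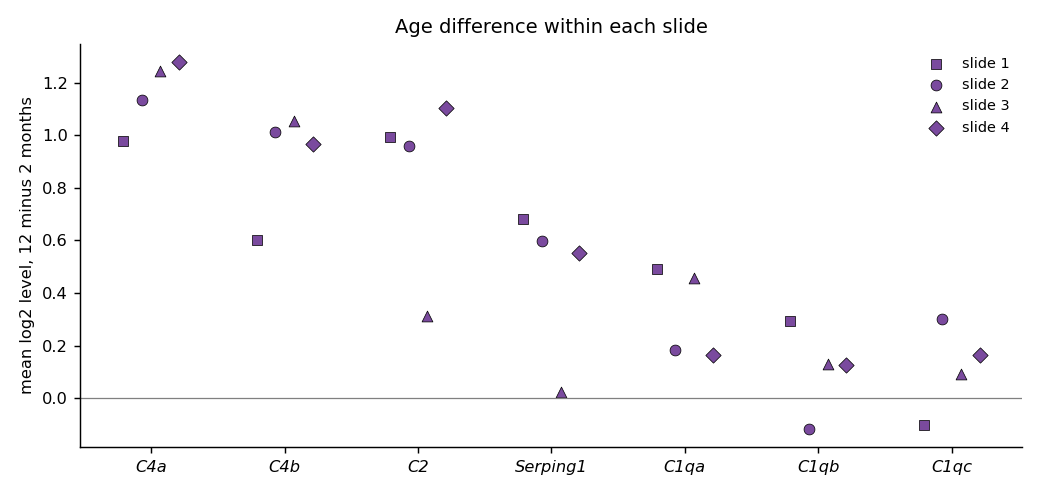
Mean log2 level at 12 months minus mean at 2 months within each slide (y axis) for the 7 genes (x axis), with 1 point per slide and treatments pooled within a slide. C4a lies between 0.98 and 1.28 and C4b between 0.60 and 1.06 on all 4 slides, C1qa lies between 0.16 and 0.49, and C1qb and C1qc have points on both sides of 0.

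The other probes of these genes gave a mixed account. The second C4a probe, detected on all 16 arrays, differed with age by 1.03 ± 0.19 over both treatments (adjusted p = 0.0859), and its ages overlapped, from 7.22 to 7.92 at 2 months and from 7.87 to 9.29 at 12 months. Marker lists of other cells and tissues also differed in direction with age over both treatments, though none of their genes passed the adjusted p. Higher at 12 months were 11 of 11 meningeal (median 0.41), 5 of 5 blood (0.82) and 8 of 11 astrocyte markers (0.10), and lower were 8 of 8 oligodendrocyte (−0.25), 6 of 6 ependymal (−0.19) and 8 of 9 choroid plexus markers (−0.37). In THC mice alone 4 of 11 meningeal (−0.06), 5 of 5 blood (0.53), 7 of 11 astrocyte (0.07) and 3 of 8 oligodendrocyte markers (−0.03) were higher. So were 7 of 9 choroid plexus (0.60) and 5 of 6 ependymal markers (0.34) there. In vehicle mice alone 9 of 9 choroid plexus (−1.28) and 6 of 6 ependymal markers (−0.86) were lower. Their part in the C4 values was not tested. The third C4a probe was not well above background on any array and was not tested. Of the 2 other C4b probes 1 was detected on 5 and 1 on 3 of 16 arrays, and they differed by 0.08 ± 0.11 and 0.29 ± 0.14, at mean levels of 4.68 and 4.61 near the background.

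THC was not associated with a detectable C4 difference at either age. At 12 months THC mice minus vehicle mice differed by −0.15 ± 0.18 for C4a (interval −0.53 to 0.24) and by 0.11 ± 0.17 for C4b (−0.24 to 0.46). At 2 months the differences were −0.23 ± 0.24 (−0.73 to 0.27) and −0.25 ± 0.21 (−0.71 to 0.20). The intervals at 12 months leave out a change as large as the age difference in either direction.

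**Figure D3:**
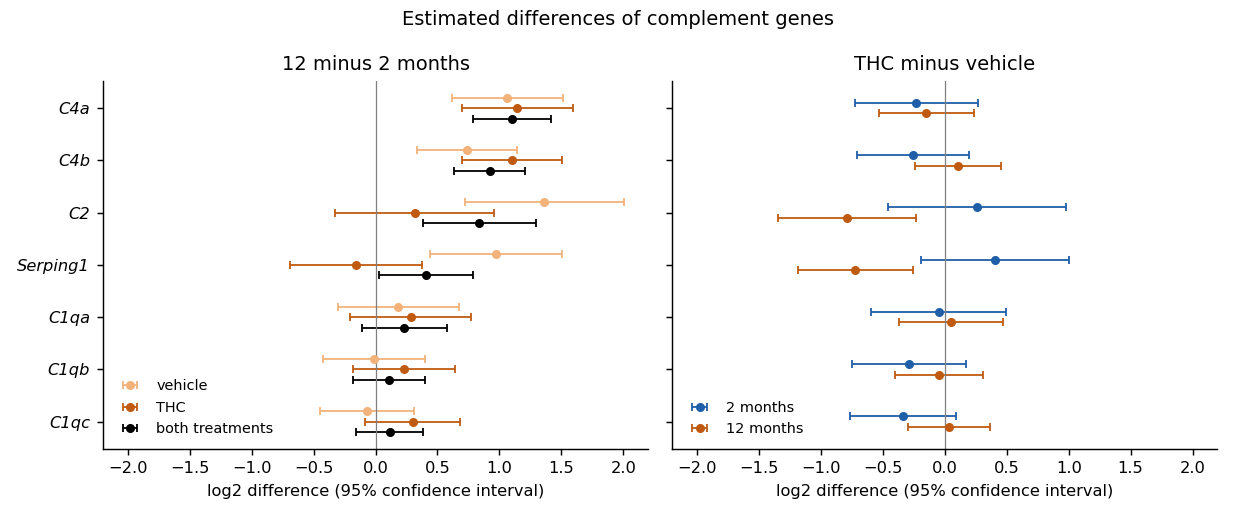
Estimated log2 differences with 95% confidence intervals (x axis) for the 7 genes (y axis), for age on the left and for THC on the right. The C4a and C4b intervals for age lie above 0 in vehicle mice, THC mice and both combined, and all C1q intervals include 0.

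C2 encodes the protease that joins a fragment of C4 in the C3-cleaving enzyme. It read 5.91, 5.77 and 5.42 in young vehicle mice and 7.18, 6.98, 6.33, 6.92 and 7.90 in old vehicle mice, which did not overlap. In THC mice it read 5.56, 5.91 and 6.41 at 2 months and 6.55, 5.94, 6.93, 5.80 and 6.14 at 12 months, where the ages did overlap. The age difference was 1.36 ± 0.30 under vehicle and 0.31 ± 0.30 under THC, and 0.84 ± 0.22 over both, with limma adjusted p of 0.557, 0.885 and 0.351. Without background correction the values were smaller by over 1.5 times, 0.68 under vehicle and 0.41 over both treatments. Within slides 1, 2 and 4 the difference in vehicle mice was 1.17, 0.86 and 2.48, and within slides 3 and 4 that in THC mice was 0.31 and −0.27.

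Serping1, the gene of the C1 inhibitor, had a similar layout. It read 7.26, 7.23 and 6.71 in young vehicle mice and 8.06, 7.95, 7.64, 8.11 and 8.44 in old vehicle mice, again without overlap. Under THC the values were 7.32, 7.12 and 7.99 at 2 months and 7.82, 6.75, 7.66, 7.01 and 7.37 at 12 months, which overlapped widely. Age differed by 0.97 ± 0.25 under vehicle and by −0.16 ± 0.25 under THC (adjusted p = 0.854 and 0.937). The second Serping1 probe gave 1.09 ± 0.30 and −0.04 ± 0.30. Within slides 1, 2 and 4 the brighter probe differed by 0.74, 0.64 and 1.73 in vehicle mice, and within slides 3 and 4 by 0.02 and −0.63 in THC mice.

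The age effects under THC and vehicle were set against each other for both genes. THC minus vehicle was −1.13 ± 0.36 for Serping1 (limma unadjusted p = 0.00585) and −1.05 ± 0.43 for C2 (limma unadjusted p = 0.0265), and neither passed over all probes (limma adjusted p = 0.949 for both). Without background correction the C2 value was −0.54, smaller by over 1.5 times. Of the member probes 3 were lower by this difference at an unadjusted p under 0.05, against 2.44% of all probes, and 0 probes of the array passed the adjusted p.

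In old mice C2 and Serping1 read lower after THC than after vehicle. The C2 mean was 6.27 ± 0.46 (SD, n = 5) in old THC and 7.06 ± 0.57 (SD, n = 5) in old vehicle mice, which differ by −0.79 ± 0.26 (interval −1.34 to −0.23, limma adjusted p = 0.916). The Serping1 means were 7.32 ± 0.44 and 8.04 ± 0.29 (SD), which differ by −0.72 ± 0.22 (interval −1.18 to −0.26, adjusted p = 0.916). The groups overlapped for both genes, and the old vehicle arrays used here are also those of the age comparison in vehicle mice. Of the 11 member probes 3, of C2 and Serping1, were lower at an unadjusted p under 0.05, against 2.91% of all probes, and 0 probes of the array passed the adjusted p in limma. At 2 months the differences were 0.26 ± 0.34 for C2 and 0.41 ± 0.28 for Serping1.

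Of the old THC arrays 3 were on slide 3, which held no vehicle array, so for them slide and treatment cannot be told apart. Slides 1 and 4 each held 1 old THC array beside old vehicle arrays. The THC difference on them was −0.53 and −1.76 for C2 and −0.19 and −1.07 for Serping1. With the slide as a block the Serping1 value was −0.48 (limma adjusted p = 0.500), and without background correction the C2 value was −0.43, each smaller by over 1.5 times. At 2 months slides 2 and 4 gave −0.21 and 0.99 for C2 and 0.09 and 1.28 for Serping1.

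Levels of C2 and Serping1 varied together with markers of meninges and fibroblasts and of blood. Mean levels of the 11 tested meningeal markers ran from 6.84 to 7.54 in young vehicle, 6.80 to 7.70 in young THC, 7.61 to 8.19 in old vehicle and 6.81 to 7.57 in old THC arrays. Of these markers 11 of 11 were higher at 12 months in vehicle mice (median 0.88) and 11 of 11 were lower after THC at 12 months (median −0.55), and Col3a1 did not pass the detection filter. The 5 blood markers, hemoglobin genes among them, ran from 8.69 to 9.64 in young vehicle, 8.94 to 9.51 in young THC, 9.61 to 10.6 in old vehicle and 9.27 to 9.93 in old THC arrays. After THC at 12 months other lists read higher, with 8 of 8 oligodendrocyte (median 0.49), 5 of 5 striatal (0.54), 9 of 9 choroid plexus (0.91), 6 of 6 ependymal (0.39) and 6 of 8 hippocampal neuron markers (0.48). Lower in that comparison were 5 of 5 blood (−0.35), 7 of 8 border macrophage (−0.23) and 5 of 6 thalamic markers (−0.29). With age in vehicle mice 6 of 6 thalamic markers were higher (0.60). The old vehicle array with the highest C2 and Serping1 values, replicate 5, had the lowest hippocampal neuron mean of the 16 arrays, 8.40. Without it the THC differences were −0.58 for C2 and −0.62 for Serping1. The part of other cells and tissues in the C2 and Serping1 values was not tested.

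Over the 16 arrays C2 followed the meningeal mean with Pearson r 0.869 and Spearman rho 0.847 (permutation p = 2e-05 and 0.00011, adjusted p = 0.00084 and 0.00308 over 84 pairs of a gene and a marker list). Without the 2 arrays farthest from the median C2 level r was 0.802, and over the 12 arrays outside slide 1 it was 0.874. Serping1 gave r 0.847 and rho 0.862 (permutation p = 9e-05 and 4e-05, adjusted p = 0.00252 and 0.00294), with 0.765 and 0.859 in the same repeats. With group means removed r was 0.743 for C2 and 0.730 for Serping1. With blood markers C2 had r 0.887 and rho 0.859 (permutation p = 2e-05 and 7e-05, adjusted p = 0.00084 and 0.00294). Serping1 had r 0.813 and rho 0.815 with them (permutation p = 0.00016 and 0.00023, adjusted p = 0.00336 and 0.00483). These r were 0.822 and 0.680 without the 2 farthest arrays, 0.926 and 0.830 outside slide 1, and 0.778 and 0.795 with group means removed. For C4a and C4b the r with the meningeal list was 0.389 and 0.178 (permutation p = 0.136 and 0.508, adjusted p = 0.601 and 0.916), with rho 0.356 and 0.0824 (p = 0.176 and 0.762). Their r with this list was −0.237 and −0.566 once group means were removed. Blood markers gave r 0.604 and rho 0.588 with C4a (permutation p = 0.0131 and 0.0185, adjusted p = 0.157 and 0.194), 0.649 without the 2 arrays farthest from the median C4a level, and r 0.434 with C4b (permutation p = 0.0935, adjusted p = 0.540). With group means removed these r were −0.06 and −0.41. Astrocyte markers gave r 0.553 with C4a (permutation p = 0.0275, adjusted p = 0.257) and 0.461 with C4b (permutation p = 0.0727, adjusted p = 0.509), and their means ran from 9.99 to 10.25 at 2 months and from 10.12 to 10.30 at 12 months. Without the 2 arrays farthest from the median C4a level its r with astrocyte markers was 0.192. By Pearson's r 6 of 84 pairs passed, C2 and Serping1 each with meninges, blood and border macrophages, and by rank the 2 pairs with border macrophages did not pass (adjusted p = 0.194 and 0.0502). The 8 border macrophage markers ran from 5.39 to 5.88 in old vehicle and from 4.95 to 5.56 in old THC arrays.

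**Figure D4:**
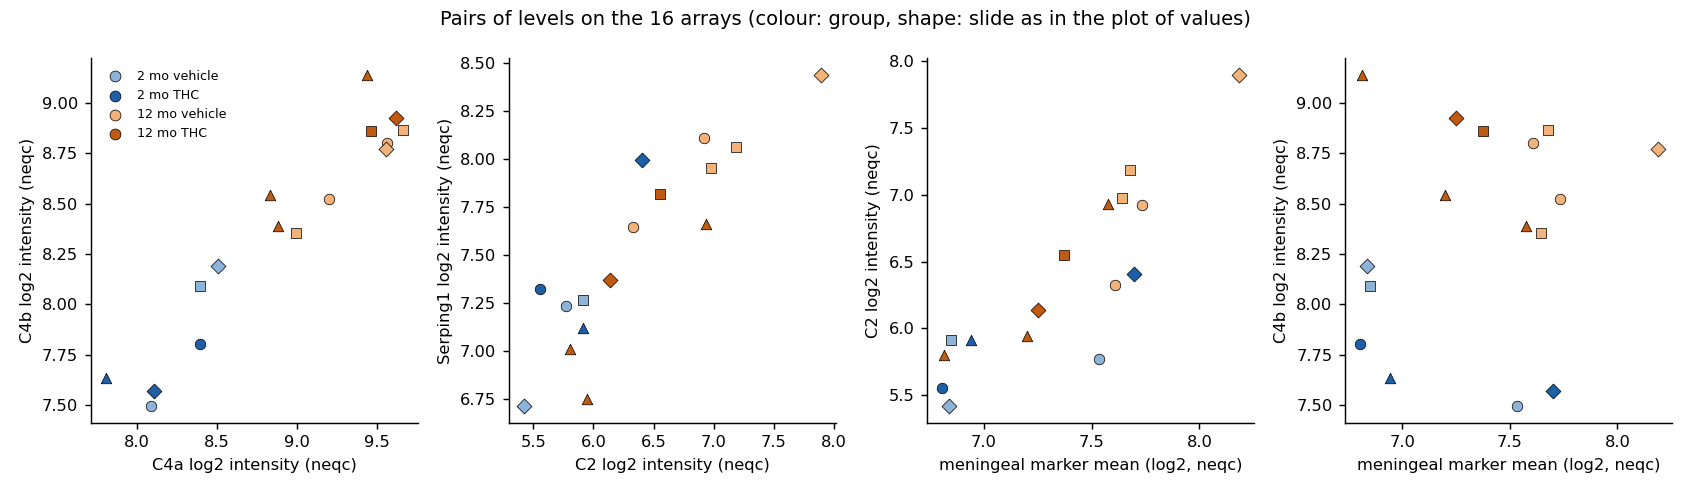
Levels of 2 quantities on the 16 arrays, all on log2 scales, with colour for the group and shape for the slide. From left to right the panels show C4b against C4a (r 0.793 at 2 and 0.809 at 12 months), Serping1 against C2 (r 0.893), C2 against the meningeal marker mean (r 0.869) and C4b against the meningeal marker mean (r 0.178).

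Among the 7 genes 2 of 21 pairs passed an adjusted p of 0.05 by Pearson's r over the 16 arrays. These were C4a with C4b and C2 with Serping1. By rank C1qb with C1qc passed too (Spearman permutation test, adjusted p = 0.0498). Since C4a and C4b levels fell into 2 clusters by age, r is given within each age, for 4 relations. For C4a and C4b it was 0.793 over the 6 young arrays (rho 0.771, exact permutation p = 0.05 and 0.103, adjusted p = 0.0667 and 0.137). Over the 10 old arrays it was 0.809 (rho 0.685, permutation p = 0.00898 and 0.0353, adjusted p = 0.0180 and 0.0706). Without the 2 arrays farthest from the median C4a level these were 0.894 and 0.773.

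C2 and Serping1 had r 0.916 and rho 0.891 over the 10 old arrays (permutation p = 0.00016 and 0.00102, adjusted p = 0.00064 and 0.00408), and r 0.868 without the 2 farthest arrays. Over the 6 young arrays r was 0.869 and rho 0.486 (exact permutation p = 0.0778 and 0.356, adjusted p = 0.0778 and 0.356). The young value rested on 2 arrays, since without them r was −0.724. Over all 16 arrays r was 0.893 and rho 0.865 (permutation p = 1e-05, the smallest that 100000 resamples can give, and 4e-05, adjusted p = 0.000105 and 0.00042), and it was 0.873 over the 12 arrays outside slide 1.

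The 3 C1q genes, the recognition subunits made mainly by microglia, did not differ detectably with age or THC. C1qa ran from 5.56 to 6.35 at 2 months and from 5.74 to 6.83 at 12 months, C1qb from 8.69 to 9.14 and from 8.44 to 9.44, and C1qc from 8.63 to 9.24 and from 8.49 to 9.32. The age differences over both treatments were 0.23 ± 0.16, 0.11 ± 0.14 and 0.12 ± 0.13 (limma adjusted p = 0.907, 0.964 and 0.955). Their 95% intervals reached from −0.11 to 0.58, from −0.18 to 0.40 and from −0.15 to 0.39.

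In young mice C1qb and C1qc read lower in all 3 THC arrays than in all 3 vehicle arrays. C1qb read 8.79, 8.72 and 8.69 under THC and 8.95, 8.99 and 9.14 under vehicle, and C1qc read 8.72, 8.80 and 8.63 against 9.10, 8.82 and 9.24. The differences were −0.29 ± 0.22 and −0.33 ± 0.20 (adjusted p = 0.812 and 0.785), and with a dim C4b probe 3 of 11 member probes were lower without overlap, against 6.13% of all probes. In limma 0 of all probes passed the adjusted p for this comparison and 0 member probes had an unadjusted p under 0.05 in either direction, against 6.12% of all probes. At 12 months THC minus vehicle was 0.05 ± 0.20 for C1qa, −0.04 ± 0.17 for C1qb and 0.04 ± 0.16 for C1qc.

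Markers of microglia other than complement were level across the groups. The means of 12 such markers ran from 7.43 to 7.91 at 2 months and from 7.48 to 7.96 at 12 months. C1qa followed them with r 0.551 and rho 0.515 (permutation p = 0.0275 and 0.0442, adjusted p = 0.257 and 0.390). Its r was 0.520 over the 12 arrays outside slide 1 and 0.580 with group means removed. Without the 2 arrays farthest from the median C1qa level it was 0.192, so its size depended on those arrays. With the same markers C1qb had r −0.106 and C1qc r 0.214 (permutation p = 0.698 and 0.427, adjusted p = 0.916 for both). Outside slide 1, over 12 arrays, these were 0.307 and 0.562, and with group means removed −0.068 and 0.314.

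C1qb, C1qc and C1qa are direct neighbours on chromosome 4. C1qb and C1qc had r 0.643 and rho 0.653 over the arrays (permutation p = 0.00757 and 0.00711, adjusted p = 0.0530 and 0.0498), C1qa and C1qc r 0.527, and C1qa and C1qb r 0.328 (permutation p = 0.0361 and 0.216, adjusted p = 0.126 and 0.324). Outside slide 1, over 12 arrays, r was 0.678 for C1qb and C1qc, 0.786 for C1qa and C1qc and 0.630 for C1qa and C1qb. C1qc also varied with C4b, with r 0.596 and rho 0.615 (permutation p = 0.0161 and 0.0129, adjusted p = 0.0845 and 0.0677). With group means removed r was 0.820 for C4b and C1qc, 0.686 for C4a and C1qc and 0.571 for C1qb and C1qc. Of the tested members only C1qb and C1qc had a promoter sequence available. Both promoters are shown to let their starts be compared, from RefSeq on GRCm38.p6, minus strand, with 250 bases before and 50 after the gene start. Capitals mark matches on either strand to GAGGAA and GGAAGT, forms of the core bound by PU.1, a transcription factor of microglia and macrophages.
C1qb, chr4:136886151-136886450: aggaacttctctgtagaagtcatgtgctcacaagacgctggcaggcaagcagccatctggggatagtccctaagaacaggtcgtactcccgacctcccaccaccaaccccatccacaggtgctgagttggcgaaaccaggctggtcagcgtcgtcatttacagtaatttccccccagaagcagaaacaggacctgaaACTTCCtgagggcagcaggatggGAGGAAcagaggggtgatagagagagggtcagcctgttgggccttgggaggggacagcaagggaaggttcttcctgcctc
C1qc, chr4:136892865-136893164: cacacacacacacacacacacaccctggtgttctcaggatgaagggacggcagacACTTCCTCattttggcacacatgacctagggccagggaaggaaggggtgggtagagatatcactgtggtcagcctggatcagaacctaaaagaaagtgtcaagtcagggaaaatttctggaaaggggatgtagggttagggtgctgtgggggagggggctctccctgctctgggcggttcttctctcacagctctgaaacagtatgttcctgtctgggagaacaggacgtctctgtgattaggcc
Each promoter holds 1 match to each form, separate in C1qb and overlapping in C1qc. Counted from the gene start they begin at −53 and −30 in C1qb and at −195 and −193 in C1qc. GAGGAA occurs in 28.3% and GGAAGT in 23.8% of 32851 promoters of the same length.

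Old THC mice were also set against young vehicle mice. C4a was 0.92 ± 0.21 and C4b 0.85 ± 0.19 higher (limma adjusted p = 0.863 for both), with no overlap. Counting the second C4a and a dim C4b probe, 4 of 11 member probes were higher without overlap, against 1.51% of all probes, and 1 probe of the array (0.00442%), no member, passed the adjusted p. This comparison shares its arrays with those above. C2 and Serping1 differed by 0.57 ± 0.30 and 0.25 ± 0.25, and their values overlapped.

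Other genes of the complement system were taken from 5 lists with 22 tested genes. For age over both treatments 12 of them were higher and 10 lower, with a median of 0.01 beside −0.02 for all 12020 genes. Limma called 0 of the 22, and at an unadjusted p under 0.05 2 were higher and 1 was lower, against 3.38% and 2.60% of all genes. Among the initiating proteases and lectins Masp1, a protease of the lectin pathway, differed by −0.25 ± 0.09 (adjusted p = 0.589), the protease gene C1s1 by −0.21 ± 0.12 and Masp2 by 0.02 ± 0.15. Properdin (Cfp), which stabilises the alternative pathway enzyme, differed by 0.16 ± 0.12.

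Terminal components, which build the membrane pore, gave C8g at 0.11 ± 0.13, C8b at 0.05 ± 0.18, C9 at −0.10 ± 0.10 and Hc, the C5 gene, at −0.07 ± 0.10. Regulators were 5 higher and 5 lower, with Susd4, a complement inhibitor, at 0.44 ± 0.16 and vitronectin (Vtn) at 0.30 ± 0.12 (adjusted p = 0.555 and 0.648). Cd59b, a membrane inhibitor of the pore, was at −0.21 ± 0.17 and Csmd2 at −0.15 ± 0.11. Of the receptors 4 were tested, with Lrp1 at 0.16 ± 0.18, Calr at 0.14 ± 0.17 and Itgb2, the shared chain of complement receptors 3 and 4, at −0.04 ± 0.12.

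Neuronal pentraxins and C1q-like proteins bind at synapses. Nptx2, a pentraxin of excitatory synapses, was lower by a log2 difference of −0.78 ± 0.17 over both treatments (adjusted p = 0.195) and Cbln2 by one of −0.57 ± 0.24 (adjusted p = 0.659), while C1ql2 was at 0.33 ± 0.46 and C1ql3 at 0.02 ± 0.31. Of 10 tested genes next to C2 and C4 on chromosome 17, 5 were higher and 5 lower with a median of −0.01, from Tnxb at 0.13 ± 0.11 and Ehmt2 at 0.10 ± 0.10 to Slc44a4 at −0.08 ± 0.13 and Atf6b at −0.08 ± 0.15.

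Genes whose levels over the 16 arrays were most like those of each member are given as a description. For C4b these were Pisd-ps1, Mocs1, Zfp551, Upk1b and Elavl3, with Pearson r from 0.838 to 0.849 over 12013 genes, and from 0.180 to 0.628 once group means were removed. For the C1q mean they were Irak2, Dync1li1, 9530059O14Rik, Pabpn1 and Thsd4, with r from 0.817 to 0.841. Emp3, Aebp1, Ahnak, Wnt6 and Sphk1 were most like C2 (0.901 to 0.937), and Ahnak, Ptgis, Slc6a12, Emp3 and Aebp1 most like Serping1 (0.901 to 0.926), so 3 genes stood on both of these last lists. With group means removed the 5 genes of C2 kept r from 0.857 to 0.953 and those of Serping1 from 0.840 to 0.923.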

How the data were processed

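Biotinylated cRNA made from total hippocampal RNA was put on 16 bead arrays of 4 slides, per the labels. The deposited scanner table gives 1 log2 intensity per probe and array, not normalized between arrays, and a detection p-value, per the file headers. Partek is named in the submitters' processing notes, while the scanner's software and any background step are not given in these sources. Log2 values of the deposited matrix lay within 0.00713 of scanner values after quantile normalization. In 1 array 26 detection p-values were text. The filter counted them as missing, and for background correction they were filled from probes of similar intensity.

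Gene names came from the platform annotation, in which 34885 of 45281 probes had 1 symbol, 18 several and 10378 none. Background correction and quantile normalization used the function neqc of limma 3.58.1 (R 4.3.3), with an offset of 16. The 22625 probes detected on 3 or more arrays (detection p under 0.05) were fitted with 1 mean per group over 16 arrays, and p-values were two-sided with Benjamini-Hochberg adjustment over all of them. The fit was tested on simulated data. Correlations used 100000 two-sided permutations in Python 3.11.15, over 21 pairs because C3 had no probe, and those with marker lists and within ages were added after the data were seen.

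Members and lists were chosen with earlier results of these data known. The brightest probe stood for a gene. From each pathway list the 2 genes with the smallest p in each direction were named for age over both treatments, and the 5 genes with the highest r were named as most like a member.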

Additional observations from a re-analysis of the deposited data

Results flagged for a closer look

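In 22 sets of 5 arrays (each tested member probe in old vehicle and old THC mice) a lone array was looked for by the ratio of its gap to the whole range, which chance exceeds in about 5% of sets, and 2 were found. C1qb read 8.44 on control_Old replicate 4, while the other old vehicle arrays lay between 9.08 and 9.22. A dim C4b probe read 5.48 on THC_Old replicate 5, while the remaining old THC arrays lay between 4.58 and 4.68.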

How the results depend on the processing

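Beside the main setting, the values were recomputed without background correction, from the series matrix, with other detection filters, with slide as a block (fixed or random), without slide 1, with array weights, with a variance trend, with the next brightest probe, within slides, and without each array in turn. C4a and C4b differences with age over both treatments stayed above 0 in all of these, and 2 members were called under either block and 0 without slide 1. Leaving out 1 array gave counts from 0 to 2, and 2 to 4 correlated member pairs by Pearson's r. The other changes of sign concerned differences of at most 0.36. With the slide as a fixed block, THC at 12 months gave C4a 0.10 and C1qb 0.039, and old THC against young vehicle gave C1qb 0.024 and C1qc 0.052, the last 0.013 with a random block. Without slide 1 the values were 0.053 for C1qc with age in vehicle mice, −0.012 for C1qb with age over both treatments, −0.13 and −0.14 for C1qa and C1qc with THC at 12 months, −0.049 for C4a in the difference of age effects and −0.00254 for C1qa in old THC against young vehicle. Array weights gave −0.00812 for C1qc with THC at 12 months and −0.000236 for C4a in the difference of age effects. The next brightest probe gave C4a 0.18 at 12 and 0.014 at 2 months and C4b 0.22 at 2 months with THC, and C4b −0.039 in the difference of age effects. Within slides, age in vehicle mice gave C1qb 0.19 on slide 1, C1qc 0.25 on slide 2, and C1qa −0.018 and C1qb 0.088 on slide 4. Age in THC mice gave Serping1 0.021 on slide 3 and C2 −0.27 on slide 4. THC at 12 months gave C4a 0.13 and C1qb 0.30 on slide 1, and C4a 0.061 and C1qa −0.20 on slide 4. THC at 2 months gave C4a 0.31, C4b 0.31, C2 −0.21 and C1qa 0.14 on slide 2. Leaving out 1 array, age in vehicle mice ran from −0.048 to 0.35 for C1qa, −0.067 to 0.13 for C1qb and −0.19 to 0.024 for C1qc, and age in THC mice from −0.34 to 0.10 for Serping1. THC at 12 months ran from −0.065 to 0.21 for C1qa, −0.19 to 0.0502 for C1qb and −0.041 to 0.17 for C1qc, and THC at 2 months from −0.28 to 0.12 for C1qa. The difference of age effects ran from −0.067 to 0.23 for C4a and −0.065 to 0.33 for C1qa, and old THC against young vehicle from −0.18 to 0.037 for C1qb and −0.15 to 0.10 for C1qc. The causes were not tested. Over all probes, age over both treatments called 6, against 18 with a fixed and 31 with a random slide block, 17 at an adjusted p of 0.1, 10 with array weights, 9 with a variance trend and 0 without slide 1, and THC at 12 months called 31 with a fixed slide block. No paired analysis was possible because the labels carry no replicate numbers: those used here only name arrays, and the slide was a block for batch, not a pairing. Dim C4b probes lay near background, which limits their differences.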
